A study of Mus musculus with 9 samples.

Results

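Primary microcephaly is a congenital reduction of brain size, and most of the genes mutated in it encode proteins of the centrosome or the mitotic spindle. The 10 mouse genes described here, of 45706 gene identifiers in the count table, are Aspm, Wdr62, Cdk5rap2, Cep152, Cep63, Stil, Cenpj, Cep135, Mcph1 and Cit. They were chosen by name and matched to the table by Ensembl identifier, and all 10 were found once and passed the filter on low counts. RNA was sequenced from central nervous system tissue of untreated C57BL6/J mice, with no transgene named for any group. Embryos were taken at E9.5 and at the later embryonic stage E14.5, adults at P60 (60 days after birth), and each stage had 3 libraries. At E9.5 the head was cut off at the hindbrain and surplus tissue outside the neuroectoderm was taken away, at E14.5 the brain was freed of its meninges, and adult tissue was collected after perfusion with saline. Nothing in the labels ties the libraries of a stage to different animals, and each p-value is therefore a measure of the scatter among these samples alone. The dissections differ between stages, so tissue and age cannot be told apart.

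The centrosome holds a pair of centrioles inside a protein matrix, the pericentriolar material, that nucleates microtubules. Each centriole builds 1 new centriole per cell cycle, and the centrosomes then form the poles of the mitotic spindle. Neural progenitors of the ventricular zone depend on this cycle because spindle position and timely mitosis bear on how many progenitors are kept before neurons are made. Neurons and most glia of the adult brain have left the cell cycle.

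All 10 genes were highest at E9.5 and all 10 were lower at E14.5. Of all genes tested, 30.7% were called lower and 34% higher in that step. From E14.5 to P60, 9 of the 10 fell again, against 39.4% of all genes lower and 36.7% higher, and Cit was the exception. Being lower in both steps, as 9 of the 10 were, applied to 14.6% of all genes. At P60 all 10 were lower than at E9.5, against 40.6% of all genes lower and 42% higher. The libraries of the later stage all lay below those of the earlier one for 10 genes between E14.5 and E9.5 (35.1% of all genes lay wholly lower), for 9 between P60 and E14.5 (39.4%) and for 10 between P60 and E9.5 (42.1%). The size of the fall differed widely within the group. Aspm at P60 was at 0.198% of its mean E9.5 level, Stil at 0.925% and Wdr62 at 1.69%, while Cep63 was at 54.8%, Cit at 34.4% and Mcph1 at 16.8%. The other 4 genes, Cep152, Cenpj, Cdk5rap2 and Cep135, lay between 4.92 and 7.55%. Levels are given in CPM, the counts scaled by sequencing depth, with library totals adjusted by edgeR's TMM method, and as mean ± SD over 3 libraries. Fold changes are fitted log2 values ± SE. Adjusted p-values come from edgeR's quasi-likelihood test with Benjamini-Hochberg adjustment over 17971 genes and a threshold of 0.05. In whole tissue, fewer cells that express a gene and less RNA of it per cell cannot be told apart.

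**Figure D1:**
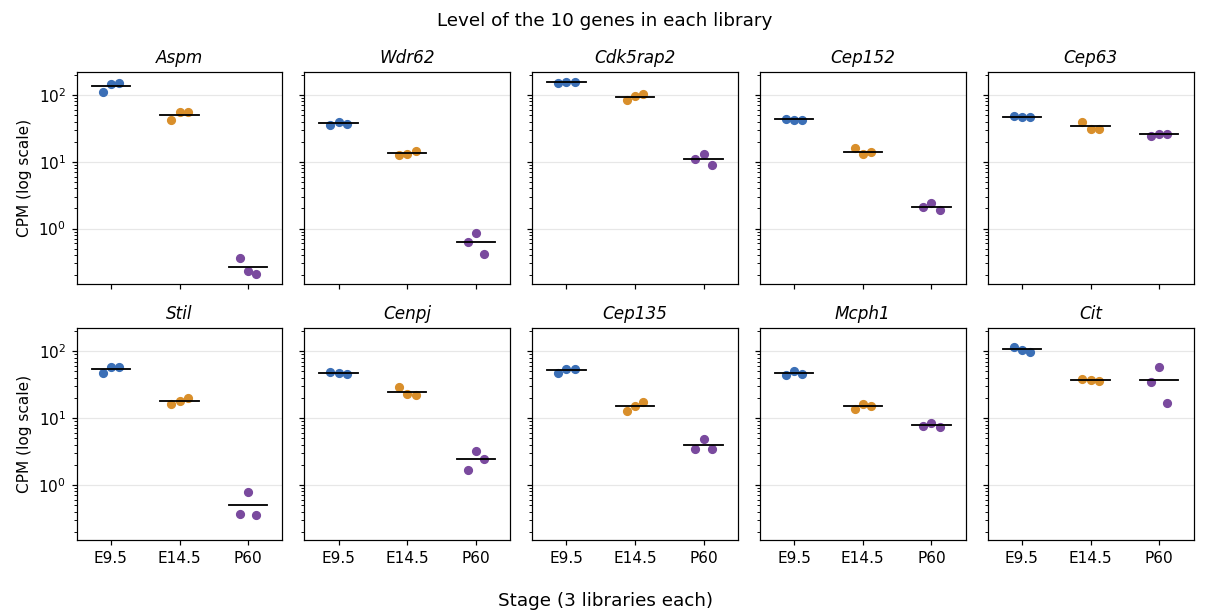
Level of each of the 10 genes in CPM (log axis) at E9.5, E14.5 and P60; points are the 3 libraries of a stage and bars their mean. Aspm, Wdr62 and Stil lay below 1 CPM in every P60 library, while Cep63 stayed between 24.7 and 26.4 CPM and the P60 libraries of Cit spread from 17.1 to 58.8 CPM.

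The libraries held 30481975 to 35619093 counts, and TMM factors were 0.953 to 1.08. Neural progenitor markers (Sox2, Nes, Pax6, Hes5, Vim and Fabp7) summed to 1310 to 1600 CPM at E9.5, 1810 to 2590 CPM at E14.5 and 189 to 212 CPM at P60. Only Vim (560 to 833 CPM) and Fabp7 (39.3 to 520 CPM) were called higher at E14.5 against E9.5, and the other 4 were not called. The 6 neuron markers summed to 198 to 221, 5160 to 5510 and 5110 to 5880 CPM. Between E14.5 and P60 these did not move together, with Tubb3, Dcx and Map2 called lower and Rbfox3, Snap25 and Syt1 higher. The 4 oligodendrocyte markers summed to 42.7 to 66.6 CPM in the 6 embryonic libraries and to 12300 to 14700 CPM at P60, and no marker was without reads at any stage. The first E9.5 library stood apart, with 223 CPM of cardiac muscle markers against 4.71 and 4.50 CPM in the others, and the first E14.5 library held 2590 CPM of progenitor markers against 1810 and 1880 CPM. Mesenchyme markers summed to 324 to 430, 262 to 583 and 17.6 to 30 CPM at the 3 stages, and erythroid markers to 2550 to 3470, 544 to 1110 and 22.9 to 97.7 CPM. Surface ectoderm markers summed to 119 to 202, 4.36 to 8.04 and 5 to 12 CPM, with the highest value again in the first E9.5 library. At E14.5 against E9.5, all 3 surface ectoderm markers and all 3 cardiac muscle markers were lower, and so were 2 of 4 mesenchyme markers (Twist1 and Prrx1, with Col1a1 higher) and 2 of 4 erythroid markers (Hba-x and Hbb-bh1, with Hba-a1 and Hbb-bs higher). At P60 against E14.5, all 4 mesenchyme and all 4 erythroid markers were lower. The part of these markers in the falls of the 10 genes was not tested. With any 1 library left out, the calls in the 3 pairwise comparisons were kept by every gene but Cep63.

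Start-site sequences are shown for the 3 genes that fell most and for Cit, since genes that fall together when cells stop dividing often carry shared promoter motifs. Of the 10 genes, 9 had a promoter window in the RefSeq table (GRCm38.p6, 250 bases before to 50 after the start), and Mcph1 had none. The motifs searched on both strands were CCAAT, the box bound by NF-Y, the cell cycle homology region written as TTTGAA or, in its other common form, TTCGAA, and E2F-type letters. The E2F-type strings were TTTGGCG and, as its variants, the string TTTCCCG as well as the string TTTGCCG and lastly the string TTTCGCG. The sequences run 5′ to 3′ on the gene's strand from upstream of the start to 30 bases after it, with motif matches in capitals. ATTGG is CCAAT read on the other strand.
Aspm: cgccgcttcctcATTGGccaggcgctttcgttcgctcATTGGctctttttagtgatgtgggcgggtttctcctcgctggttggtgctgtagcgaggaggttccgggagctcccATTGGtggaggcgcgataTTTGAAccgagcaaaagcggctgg
Wdr62: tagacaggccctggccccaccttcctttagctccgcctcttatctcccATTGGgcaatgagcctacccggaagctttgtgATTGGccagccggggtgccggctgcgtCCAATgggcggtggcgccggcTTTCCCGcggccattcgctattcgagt
Stil: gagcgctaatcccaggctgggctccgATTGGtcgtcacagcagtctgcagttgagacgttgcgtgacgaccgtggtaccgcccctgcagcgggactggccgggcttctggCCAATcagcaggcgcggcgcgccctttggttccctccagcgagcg
Cit: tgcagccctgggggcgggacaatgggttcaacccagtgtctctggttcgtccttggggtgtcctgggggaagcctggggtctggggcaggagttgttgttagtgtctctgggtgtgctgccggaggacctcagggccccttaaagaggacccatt

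These stretches lie at chr1:139454648-139454802 on the plus strand (Aspm), chr7:30280392-30280546 on the minus strand (Wdr62), chr4:114999993-115000147 on the plus strand (Stil) and chr5:115845531-115845685 on the plus strand (Cit). At least 1 CCAAT match was present in the whole window of 5 of 9 genes, against 37.4% of all 32851 windows. Of these, Aspm, Wdr62, Stil and Cep152 each had 3 matches, and Cep135 had 1. Among all windows, 3.37% held 3 or more. The cut at 3 was not planned and equals the count these genes had, so no conclusion is drawn from it. E2F-type letters were found for Aspm, Wdr62, Cdk5rap2 and Cep63, 4 of 9, against 6.7% of windows. The cell cycle homology letters were found for Aspm, Cep152 and Cdk5rap2, 3 of 9, against 19.2% of windows. Windows of Cit and Cenpj held no match of any kind. For Cit the RefSeq start used lies inside the span that GENCODE gives the gene (chromosome 5, 115845278 to 116008947). Likewise, that of Cenpj lies inside 14, 56526761 to 56575425, and that of Cep63 inside 9, 102584588 to 102626534. Other starts of Cit, Cenpj and Cep63 were therefore not searched. The matches describe letters only, with no binding measured.

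Aspm and Wdr62 are spindle pole proteins, and they are the genes most often mutated in human primary microcephaly. Aspm (chromosome 1, 139454772 to 139494091, GRCm38) had 110, 148 and 149 CPM at E9.5, 41.5, 54.7 and 55.3 CPM at E14.5, and 0.367, 0.235 and 0.206 CPM at P60. No stages overlapped, and the lowest value of both embryonic stages was in the first library. Only 11, 8 and 7 reads were counted at P60, so the adult level carries a large counting error. The change was -1.43 ± 0.18 at E14.5 against E9.5 (adjusted p = 4.4e-05) and -7.55 ± 0.27 at P60 against E14.5 (adjusted p = 6e-09), which is 187-fold lower in the second step.

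Wdr62 (chromosome 7, 30240138 to 30280419) had 36, 39.0 and 37.2 CPM at E9.5, 12.7, 13.2 and 14.49 CPM at E14.5, and 0.633, 0.851 and 0.412 CPM at P60. Again no stages overlapped, and the embryonic libraries agreed more closely than those of Aspm, with a coefficient of variation of 4.07% at E9.5 against 16.4% for Aspm. The first step was -1.47 ± 0.18 (adjusted p = 2.9e-05) and the second -4.40 ± 0.22 (adjusted p = 4e-08). Both genes thus fell by nearly the same amount before E14.5, and Aspm fell further after it. The log2 ratio of Aspm to Wdr62 within a library was 1.82 ± 0.206 at E9.5, 1.82 ± 0.171 at E14.5 and -0.356 ± 0.198 at P60 (SD, n = 3 libraries per stage, of CPM + 1). It differed between stages by an exact permutation test (p = 0.036, adjusted p = 0.041 over 8 gene pairs). Both genes were under the added 1 CPM at P60, which compresses that ratio. Of the exons of Wdr62, 264 bases overlap Thap8 on the other strand, and reads there could have been counted for either gene.

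Cdk5rap2 anchors gamma-tubulin ring complexes, which nucleate microtubules, in the pericentriolar material. Its level per kilobase of merged exons was 12 ± 0.313 CPM at E9.5 and 7.25 ± 0.684 CPM at E14.5, the first of the 10 at both stages (at E9.5 it was second to Aspm when the longest transcript was the length). Cdk5rap2 (chromosome 4, 70216856 to 70410443) had 152, 159 and 159 CPM at E9.5, 84.5, 96.3 and 102 CPM at E14.5, and 11.1, 13.0 and 9.07 CPM at P60. All 3 stages lay apart. The first step was among the smallest of the 10 genes, -0.73 ± 0.15 (adjusted p = 0.0015), and the second was -3.09 ± 0.16 (adjusted p = 5.8e-08). A processed pseudogene, Ywhaq-ps3, shares 365 bases with its exons on the same strand.

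Pde4dip encodes myomegalin, a relative of Cdk5rap2 that also sits at the Golgi and centrosome. It had 56.3 ± 6.31 CPM at E9.5, 172 ± 33.3 CPM at E14.5 and 109 ± 36.6 CPM at P60. Pde4dip rose at E14.5 against E9.5 (1.61, adjusted p = 0.00014) and fell at P60 against E14.5 (-0.66, adjusted p = 0.023). The log2 ratio of Cdk5rap2 to Pde4dip was 1.46 ± 0.127 at E9.5, -0.845 ± 0.189 at E14.5 and -3.15 ± 0.25 at P60, and no libraries of different stages overlapped (exact permutation test, p = 0.0036, adjusted p = 0.0071 over 8 pairs). The value 0.0036 is the smallest this test can give. Between E9.5 and P60 it moved by -4.61 on the log2 scale.

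**Figure D2:**
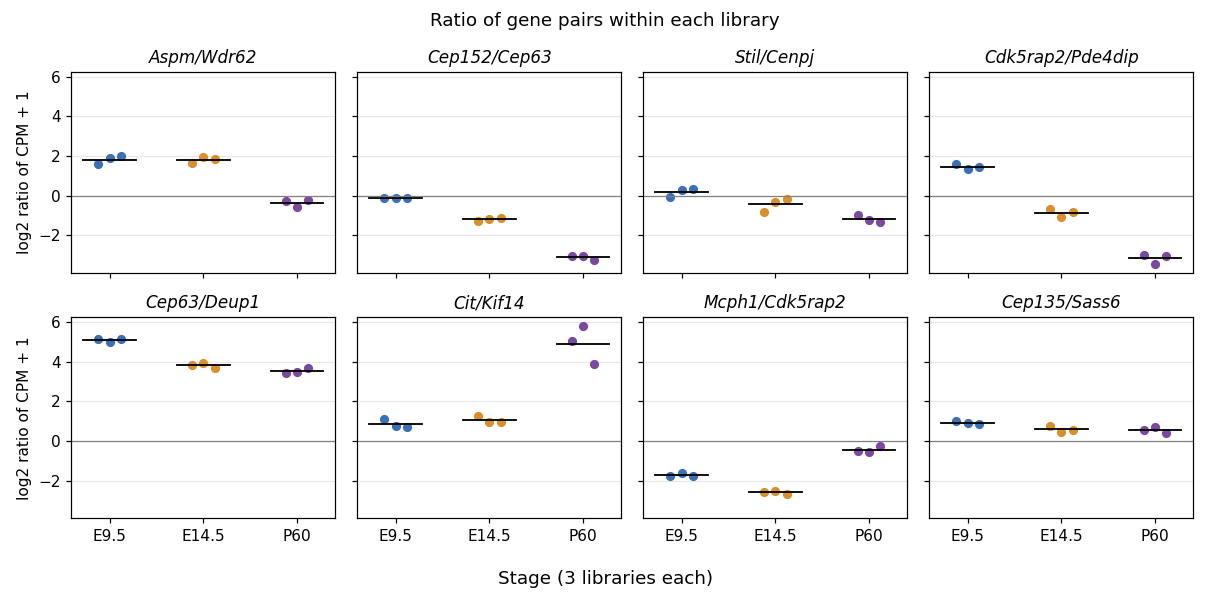
Log2 of the quotient of both genes' CPM + 1 in each library, for 8 gene pairs at E9.5, E14.5 and P60; bars are means of 3 libraries and the grey line marks equal levels. Cdk5rap2/Pde4dip changed sign between E9.5 and E14.5, and Cit/Kif14 was near 1 at both embryonic stages and 3.91 to 5.78 at P60.

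Cep152 and Cep63 form a ring around the mother centriole, where Cep152 recruits Plk4, the kinase that starts centriole duplication, and Cep63 helps to place Cep152. CEP63 mutations are known in Seckel syndrome, a dwarfism with microcephaly. Cep152 (chromosome 2, 125563088 to 125625113) had 44.3, 42.5 and 42.6 CPM at E9.5, 15.8, 12.9 and 13.9 CPM at E14.5, and 2.10, 2.38 and 1.88 CPM at P60. Cep63 (chromosome 9, 102584588 to 102626534) had 48.6, 46.3 and 46.2 CPM at E9.5, 39.5, 30.7 and 31.0 CPM at E14.5, and 24.7, 26.2 and 26.4 CPM at P60. Stages did not overlap for either gene, but Cep63 was only 1.39-fold lower in the first step and 1.31-fold lower in the second, against 3.04-fold and 6.69-fold for Cep152.

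The fitted changes of Cep152 were -1.60 ± 0.14 (adjusted p = 2.6e-06) and -2.74 ± 0.15 (adjusted p = 8.3e-08). Those of Cep63 were -0.48 ± 0.14 (adjusted p = 0.0096) and -0.39 ± 0.14 (adjusted p = 0.023), and neither call was stable. The first was lost without the second or the third E14.5 library (adjusted p = 0.053 and 0.051). The second was lost without the first E14.5 or the first P60 library (adjusted p = 0.057 and 0.064) and under median-of-ratios or upper quartile scaling (adjusted p = 0.072 and 0.15). It was also lost without the filter on low counts (adjusted p = 0.077) and with the compared stages fitted alone (adjusted p = 0.09). At P60 against E9.5 the fall of Cep63, -0.87 ± 0.14 (adjusted p = 0.00012), stayed called in every fit. The ratio of Cep152 to Cep63 was -0.122 ± 0.00829 at E9.5, -1.19 ± 0.0824 at E14.5 and -3.10 ± 0.128 at P60 on the log2 scale (exact permutation test, p = 0.0036, adjusted p = 0.0071). Cep63 shares 239 exon bases with Anapc13 on the other strand, so part of its count could belong to that gene.

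Deup1 is a relative of Cep63 that serves the mass production of centrioles in multiciliated cells. It had 0.417 ± 0.0743 CPM at E9.5, 1.45 ± 0.345 CPM at E14.5 and 1.31 ± 0.165 CPM at P60, and rose in the first step (1.79, adjusted p = 0.00027). The Cep63 to Deup1 ratio, 5.08 ± 0.0901, 3.82 ± 0.125 and 3.54 ± 0.142 at the 3 stages, differed between them (exact permutation test, p = 0.0071, adjusted p = 0.011). Most of that shift fell between E9.5 and E14.5. Deup1 was under the added 1 CPM at E9.5, which compresses the ratio there.

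Stil, Cenpj and Cep135 act inside the new centriole. Stil binds Plk4 and brings in Sass6, the protein of the cartwheel on which the centriole is built, Cenpj sets the length of its microtubules, and Cep135 ties the cartwheel to them. Stil (chromosome 4, 115000159 to 115043196) had 47.4, 58.7 and 57.4 CPM at E9.5, 16.1, 18.3 and 19.8 CPM at E14.5, and 0.367, 0.793 and 0.353 CPM at P60. Its steps were -1.59 ± 0.21 (adjusted p = 5.6e-05) and -5.14 ± 0.27 (adjusted p = 5.6e-08), the second largest fall of the group after Aspm, on 11, 27 and 12 reads at P60.

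Cenpj (chromosome 14, 56526761 to 56575425) had 48.8, 47.8 and 45.8 CPM at E9.5, 29.5, 23.1 and 22.2 CPM at E14.5, and 1.67, 3.17 and 2.42 CPM at P60. It fell less than Stil in both steps, by 0.93 ± 0.20 (adjusted p = 0.0018) and 3.36 ± 0.23 (adjusted p = 2.6e-07) on the log2 scale. The log2 ratio of Stil to Cenpj was 0.189 ± 0.2, -0.435 ± 0.356 and -1.17 ± 0.19 at E9.5, E14.5 and P60 (exact permutation test, p = 0.0036, adjusted p = 0.0071). Stil was under the added 1 CPM at P60, which compresses that ratio. In the first E14.5 library Cenpj was at its E14.5 maximum while Stil and Aspm were at their minimum.

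Cep135 (chromosome 5, 76588698 to 76646466) had 46.9, 54.0 and 54.3 CPM at E9.5, 12.9, 15.3 and 17.5 CPM at E14.5, and 3.50, 4.81 and 3.42 CPM at P60. Its first step was the largest of the group, -1.77 ± 0.18 (adjusted p = 6.8e-06), and the second was of similar size, -1.96 ± 0.18 (adjusted p = 3.2e-06). Sass6 itself had 27.0 ± 3.51, 9.78 ± 2.31 and 2.25 ± 0.248 CPM at the 3 stages. The Cep135 to Sass6 ratio was 0.92 ± 0.0712, 0.602 ± 0.154 and 0.585 ± 0.15, and its difference between stages missed the threshold (exact permutation test, p = 0.057, adjusted p = 0.057).

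Mcph1, or microcephalin, has BRCT domains and restrains condensin II and entry into mitosis, with a further role in the DNA damage response. It (chromosome 8, 18595131 to 18803189) had 43.9, 51.2 and 45.5 CPM at E9.5, 13.6, 16.2 and 15.3 CPM at E14.5, and 7.63, 8.54 and 7.39 CPM at P60. Here the larger fall came first, -1.64 ± 0.14 (adjusted p = 1.9e-06) against -0.93 ± 0.14 in the second step (adjusted p = 0.00011). The ratio of Mcph1 to Cdk5rap2 was therefore not monotonic, at -1.72 ± 0.0923, -2.57 ± 0.0816 and -0.436 ± 0.153 over the stages (exact permutation test, p = 0.0036, adjusted p = 0.0071). Angpt2, a vessel gene on the other strand, lies in the body of Mcph1 with 0 shared exon bases, and 190 exon bases are shared with the antisense gene Gm16725.

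Cit encodes citron kinase, which holds the midbody together at the end of cytokinesis, and also a shorter form without the kinase domain that is known from neurons. Counts per gene do not separate these forms. Cit (chromosome 5, 115845278 to 116008947) had 118, 105 and 99.2 CPM at E9.5, 38.8, 37.8 and 36.4 CPM at E14.5, and 35.0, 58.8 and 17.1 CPM at P60. The E14.5 libraries agreed within a coefficient of variation of 3.27%, whereas the P60 libraries spread by 56.5% and lay on both sides of the E14.5 values.

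The first step of Cit was -1.51 ± 0.33 (adjusted p = 0.0023) and the second -0.03 ± 0.33 (adjusted p = 0.94). Without the second P60 library the second step was -0.53 and without the third 0.31, so neither its direction nor its size can be given. At P60 against E9.5 it was -1.54 ± 0.33 (adjusted p = 0.0013), with a range of -2.04 to -1.18 when single libraries were left out. The P60 library with the highest Cit also had the most neuron marker CPM (5880, against 5300 and 5110) and astrocyte marker CPM (2010, against 1600 and 1520) and the least oligodendrocyte marker CPM (12300, against 14700 and 14000). Of the astrocyte markers, Aqp4, Aldh1l1 and Slc1a2 were highest in that library, but Gfap (403, against 450 and 513 CPM) and S100b (315, against 369 and 373 CPM) were lowest. The same library stood further from the others over all genes with enough reads (chi-square per gene 90 and 157) than they did from each other (19). The part of these differences in the spread of Cit was not tested.

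Kif14, a kinesin that works with citron kinase at the midbody, had 58.1 ± 4.2, 17.5 ± 1.73 and 0.131 ± 0.065 CPM at the 3 stages. The Cit to Kif14 ratio was 0.873 ± 0.226 at E9.5, 1.06 ± 0.177 at E14.5 and 4.91 ± 0.941 at P60 (exact permutation test, p = 0.011, adjusted p = 0.014). All 3 P60 libraries lay above all 6 embryonic ones. Kif14 was under the added 1 CPM at P60, which compresses that ratio.

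**Figure D3:**
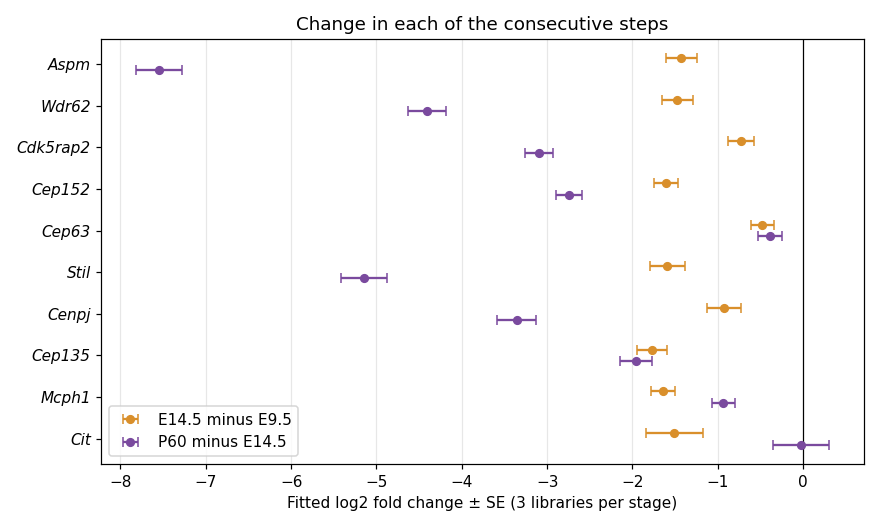
Fitted log2 fold change ± SE of each gene at E14.5 against E9.5 (orange) and at P60 against E14.5 (purple), from 3 libraries per stage. First steps lay between -1.77 and -0.48, second steps between -7.55 and -0.03.

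The steps were compared directly by testing whether the second log2 change differed from the first. The 10 genes varied little in the first step, where all lay between -1.77 and -0.48, and much more in the second, between -7.55 and -0.03. The second step was the larger fall for Aspm (difference -6.12 ± 0.35, adjusted p = 2.2e-07), Stil (-3.55 ± 0.38, adjusted p = 1.8e-05), Wdr62 (-2.93 ± 0.32, adjusted p = 1.9e-05), Cenpj (-2.43 ± 0.34, adjusted p = 0.00012), Cdk5rap2 (-2.36 ± 0.25, adjusted p = 1.8e-05) and Cep152 (-1.14 ± 0.24, adjusted p = 0.0019). It was the smaller one for Mcph1 (0.71 ± 0.24, adjusted p = 0.024) and Cit (1.48 ± 0.59, adjusted p = 0.047). No difference was called for Cep63 (0.09 ± 0.24, adjusted p = 0.76) or Cep135 (-0.19 ± 0.30, adjusted p = 0.6). In all, 8 of 10 genes were called, against 62.3% of all genes. The Cit call was lost on leaving out any of 8 of the 9 libraries, with an adjusted p of up to 0.12, and the Mcph1 call on leaving out any of 4, with an adjusted p of up to 0.073. Expressed as a share of the whole log2 fall to P60, the first step made up 15.9% for Aspm, 47.4% for Cep135 and 63.7% for Mcph1.

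Set side by side per kilobase of merged exons, the 10 genes summed to 81.5 ± 3.44 CPM per kilobase at E9.5, 34.5 ± 0.778 at E14.5 and 8.42 ± 1.82 at P60 (SD, n = 3). At E9.5 their levels lay within a narrow range, from 4.90 ± 0.14 for Cep63 to 12 ± 0.313 for Cdk5rap2, and Aspm (11.7 ± 1.92) was within its spread of Cdk5rap2. At P60 they ran from 0.0232 ± 0.00738 for Aspm to 2.68 ± 0.0996 for Cep63, with Cit at 2.25 ± 1.27 within its spread of Cep63. Cep63 was thus the lowest of the 10 at E9.5, or 8th with the longest transcript as the length, and the highest at P60 with either length. Its share of the sum was 6.02 ± 0.43% at E9.5, 10.2 ± 1.68% at E14.5 and 32.8 ± 6.92% at P60. Cit held 8.05 ± 1.05, 6.66 ± 0.364 and 25.4 ± 9.65%, and Aspm 14.3 ± 1.83, 12.6 ± 1.78 and 0.284 ± 0.105%. With the longest transcript as the length, Cep63 and Cit held 35.7 and 29.0% at P60 and kept the first and second place.

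**Figure D4:**
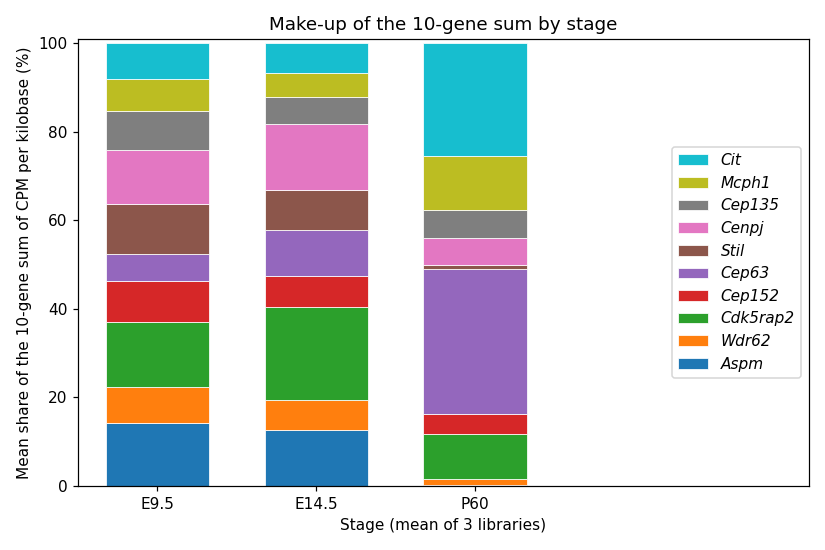
Mean share (%) of each gene in the 10-gene sum of CPM per kilobase of exon at E9.5, E14.5 and P60, over 3 libraries per stage. Cep63 and Cit made up 32.8 and 25.4% of the sum at P60, against 6.02 and 8.05% at E9.5, while Aspm made up 0.284% at P60.

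The fall was also set against that of dividing cells. Over 12 proliferation markers, among them Mki67, Top2a and the replicative helicase subunits Mcm2, Mcm3 and Mcm6, the mean log2(CPM + 1) was 8.36 ± 0.034 at E9.5, 6.56 ± 0.171 at E14.5 and 1.89 ± 0.0506 at P60. All 12 fell in each step, and their median fitted change was -1.81 in the first step and -5.46 in the second. For the 10 genes the medians were -1.49 and -2.92, and for all genes 0.03 and -0.06. For Aspm the log2 difference between the gene and this mean was -1.28 ± 0.276, -0.889 ± 0.399 and -1.55 ± 0.144 at the 3 stages. The fitted fall of Aspm in the second step, -7.55, was larger than the marker median of -5.46. It was smaller than the falls of the markers Mki67 (-8.78), Ube2c (-8.11) and Top2a (-7.80), and larger than those of the other markers. Cep63 differed by -2.78 ± 0.0243, -1.45 ± 0.0412 and 2.85 ± 0.0168, and Cdk5rap2 by -1.07 ± 0.0676, 0.00722 ± 0.299 and 1.69 ± 0.237. The added 1 CPM compresses these differences at P60, where Aspm, Wdr62 and Stil lay below 1 CPM. So did the means of the markers Mki67, Ccna2 and Ube2c (0.484, 0.62 and 0.253 CPM). The other markers lay above it, up to 79.1 CPM for Pcna.

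Other loci of human primary microcephaly changed in the same direction for the most part. Of 20 matched and tested, 16 were lower and 1 higher at E14.5 against E9.5, and 17 were lower and 1 higher at P60 against E14.5, with medians of -0.78 and -2.38. The kinetochore genes Bub1 (-2.31 and -7.32 in the successive steps) and Knl1 (-1.68 and -7.60) and the midbody kinesin Kif14 (-1.73 and -7.01) fell in both steps. Cenpe, a kinetochore motor, and Nup37, a nuclear pore protein, were among the largest falls of the first step (-1.96 and -1.84). Mfsd2a, a lipid transporter of brain vessels, was the gene that rose in the first step (0.92, adjusted p = 0.001), and Rrp7a, a ribosome biogenesis factor, the one that rose in the second (0.57, adjusted p = 0.016).

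Among 17 further genes of centriole duplication and elongation, 10 fell and 2 rose in the first step, and 12 fell and 1 rose in the second. Plk4 had 3.60 ± 0.256, 1.29 ± 0.138 and 0.0739 ± 0.0678 CPM at the 3 stages, and Cep192, which recruits Plk4 to centrioles, had 129 ± 28.8, 43.6 ± 13.0 and 3.06 ± 0.907 CPM. Cep120, a partner of Cenpj in centriole elongation, rose in the first step (0.42, adjusted p = 0.019), Cntrob, a daughter centriole protein, fell in the second (-2.84, adjusted p = 4.5e-08), and Cetn2, a centrin, rose in the second (1.09, adjusted p = 0.00081). The list's median changes were -0.85 and -1.11.

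Of 18 genes of the pericentriolar material and the gamma-tubulin complexes, 8 fell and 4 rose in the first step, and 12 fell and 3 rose in the second. Pcnt, the scaffold pericentrin, had 133 ± 13.3, 50.4 ± 9.83 and 9.61 ± 2.78 CPM, and Nedd1, which targets gamma-tubulin to the centrosome, had 61.5 ± 10.0, 20.6 ± 4.5 and 4.57 ± 0.568 CPM. Akap9, a scaffold of Golgi and centrosome, rose in the first step (1.21, adjusted p = 0.00031) and fell in the second (-3.76, adjusted p = 1.1e-07). Ninl, a ninein-like protein, fell in both (-1.45 and -3.16), and Cep131, a protein of centriolar satellites, fell in the second (-2.69, adjusted p = 4.1e-06). The gamma-tubulin paralogs parted. Tubg1 had 123 ± 18.5, 79.3 ± 21 and 67.3 ± 3.91 CPM, and Tubg2 had 1.45 ± 0.485, 25.4 ± 4.61 and 59.1 ± 4.4 CPM, with rises of 4.13 and 1.22 (adjusted p = 1.2e-07 and 0.00021). Reads of so similar a pair could have been split between them in counting.

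All 9 genes of the mother centriole appendages fell in the second step, and 7 fell and 1 rose in the first. Cntrl, or centriolin, fell by 1.07 and 3.41 on the log2 scale, and Cep164, of the distal appendages, by 1.35 and 3.08. Odf2 fell by 0.96 in the first step (adjusted p = 0.00024), and Ccdc120, of the subdistal appendages, rose there (1.23, adjusted p = 0.00011) and fell in the second step (-2.59, adjusted p = 4.5e-07).

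Of 19 spindle genes, 12 fell and 2 rose in the first step and 15 fell and 2 rose in the second. The mitotic kinases Plk1 (-2.10 and -6.65) and Aurka (-2.34 and -3.86) fell in both, as did Kif11, the motor that separates spindle poles (-1.46 and -5.98), Tpx2, an Aurka activator (-1.75 and -5.82), and the augmin subunit Haus6 (-1.83 and -2.17). Pafah1b1, or Lis1, a dynein regulator, rose in the first step (0.59, adjusted p = 0.012), and its partner Ndel1 rose in both (0.52 and 1.36, adjusted p = 0.0026 and 1.9e-06).

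All 12 cytokinesis genes fell in the first step, and 10 fell and 2 rose in the second. Aurkb, the kinase of the chromosomal passenger complex, fell by 1.89 and 7.10, Kif20a by 2.38 and 4.98, Kif20b by 2.15 and 5.17 on the log2 scale. Cep55, an abscission factor, had changes of -1.41 and -6.47. The genes that rose in the second step were Anln (1.58, adjusted p = 8.2e-07), an actin-binding protein of the cleavage furrow also known from adult myelin, and Rhoa (0.44, adjusted p = 0.035), the GTPase of the cleavage furrow. Anln had 102 ± 6.99, 27.9 ± 1.58 and 83.3 ± 2.75 CPM at the 3 stages, and its P60 libraries were those with 12300 to 14700 CPM of oligodendrocyte markers. Their part in its level was not tested.

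The 6 genes of multiciliated cell centrioles went the other way in the first step, where 5 rose and 0 fell, and 0 rose and 4 fell in the second. Mcidas, a regulator of multiciliated cells, rose by 4.65 (adjusted p = 6.6e-05), Cdc20b by 3.41 (adjusted p = 0.0014) and Ccno, a cyclin-like protein, by 2.97 (adjusted p = 3.9e-05), all from under 1 CPM at E9.5. Mcidas (-1.32, adjusted p = 0.017), Cdc20b (-5.92, adjusted p = 0.00019) and Gmnc, a geminin relative (-1.23, adjusted p = 0.028), fell in the second. Cdc20b had 88 reads over the E14.5 libraries and 1 over the P60 libraries, so the size of its fall is uncertain. Kif14 and Sass6 each stand in more than 1 of these lists. No list was tested against other genes. The measure for the counts in the 2 steps is the share of all genes called lower, 30.7 and 39.4%, or higher, 34 and 36.7%.

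**Figure D5:**
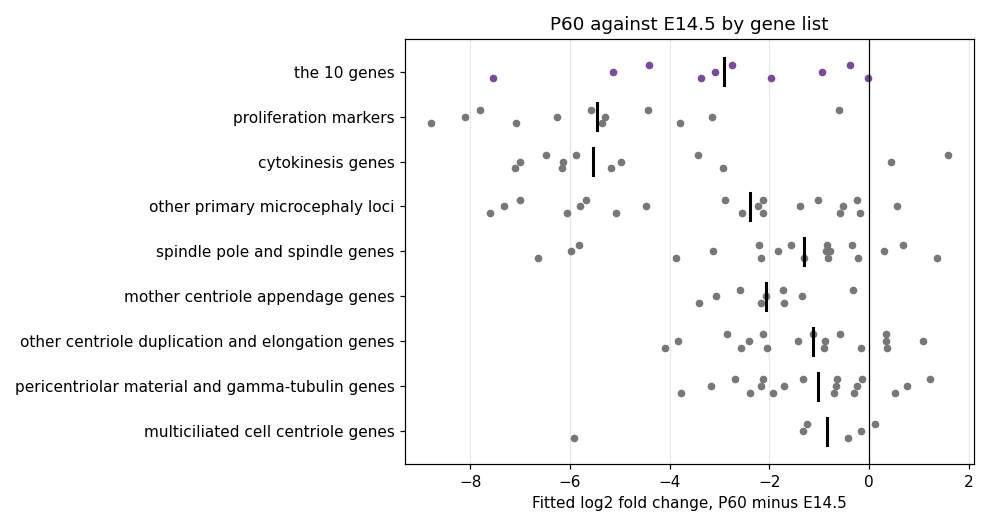
Fitted log2 fold change at P60 against E14.5 of each tested gene (points, offset only to part them) in the 10-gene group (purple) and in 8 related lists (grey), with black bars for list medians. The 10 genes spread from -7.55 to -0.03 around a median of -2.92, between the medians of cytokinesis genes (-5.53) and of centriole duplication genes (-1.11).

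Genes with the most similar course over the 9 libraries were found by the root-mean-square difference of log2 CPM. Each gene was first centred on its own mean. The search covered 12704 tested genes with a mean of at least 5 CPM at some stage. Genes with predicted, clone, pseudogene or mitochondrial genome names were left out. Aspm was closest to Ncapg, a condensin subunit (0.283), Cdca2 (0.288) and Kif2c (0.369), both mitotic chromosome proteins. Stil was closest to Gli3 (0.145), Baz1a (0.205) and Tead1 (0.274), and Wdr62 to Sgo2a (0.135), Tram2 (0.187) and Ddias (0.224). Mcph1 was closest to the E2F family factor E2f4 (0.085), Rbm19 (0.0884) and Prpf4 (0.0899).

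Cdk5rap2 was closest to Proser3 (0.114), Dicer1 (0.132) and the maintenance methyltransferase gene Dnmt1 (0.146), and Cep152 to Cdca4 (0.112), Ppp2r1b (0.13) and Jag1 (0.147). Nearest to Cep63 were Nfx1 (0.0677), Cpsf3 (0.0677) and Tysnd1 (0.0722). Cenpj lay closest to Nrm (0.158), Prx (0.194) and Col7a1 (0.213), Cep135 to Pfas (0.137), Plod2 (0.139) and Haus6 (0.14), and Cit to Pknox2 (0.262), Itga3 (0.283) and Rel (0.295). Within the 100 nearest genes, Stil and Wdr62 found each other, and Cenpj found Cdk5rap2 and Cep152. Aspm, Cdk5rap2, Cep152, Cep63, Cep135, Mcph1 and Cit had no other of the 10 genes among their 100 nearest. Such a list depends on how many other genes lie close, so it does not show how far apart the 10 genes were.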

How the data were processed

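The authors deposited raw read counts per Ensembl gene for 9 libraries, 3 per stage, as whole numbers. Per the submitters' processing notes, Trimmomatic 0.36 and STAR 2.5.2b were used with the mm10 genome. The counting program, annotation and strand setting are not given in the sources used here. Per the labels' protocols, cDNA came from an ultra-low-input kit with PCR amplification, and no molecular identifiers are named. Symbols, positions and exon lengths come from GENCODE M21 (GRCm38), which matched 45143 of 45706 identifiers. Of 21 other microcephaly loci listed, Map11 was not matched.

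Counts were fitted in R 4.3.3 with edgeR 4.0.16 (TMM, filterByExpr, robust quasi-likelihood) for all 9 libraries with stage as the only factor, and the code was tested on simulated data. The biological coefficient of variation was 19.9%. Gene pairs used an exact permutation test over all 1680 assignments of libraries, in Python 3.11.15. From each related list, at most 3 called genes per step were named for the commoner direction, and at most 1 for the opposite one. The 10 genes, the lists and the tests were chosen with earlier results of these data known. Deviations of same-numbered libraries from their stage means correlated at 0.373, 0.143 and 0.21 between E9.5 and E14.5. Differently numbered libraries gave similar values without the first libraries (0.186 for E9.5 2 with E14.5 3, 0.201 for E9.5 3 with E14.5 2). Differently numbered pairs with a first library lay between -0.291 and -0.227. These values therefore cannot show whether the numbers pair samples. With P60 the same-numbered libraries did not all correlate positively (lowest -0.107 for E9.5 and -0.228 for E14.5), and the labels name no shared litter or batch. A fit with the replicate number as a block was run as an alternative. Replicates of a stage differed by more than sampling noise (chi-square per gene 4.08 to 157). At each stage 1 library stood apart from the others. Pairs with the first E9.5 library gave 38.9 and 41.4, against 4.08 for the remaining pair. Those with the first E14.5 library gave 120 and 123, against 8.07, and those with the second P60 library 90 and 157, against 19.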

Additional observations from a re-analysis of the deposited data

How the results depend on the processing

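Under the alternative fits (other scalings, filters, DESeq2, the compared stages alone, no robust estimation, replicate block, single libraries left out), 9 or 10 of the 10 genes were called lower at E14.5 against E9.5, 8 or 9 at P60 against E14.5 and 10 at P60 against E9.5. Of 540 recomputed fold changes of single genes, 525 kept direction and call, 8 lost the call, all of them Cep63, and 7 turned, all of them Cit at P60 against E14.5. The values for Cit were 0.067 under median-of-ratios scaling and likewise in DESeq2, 0.11 under upper quartile scaling, 0.0036 without the filter, 0.011 with the compared stages alone, and -0.53 to 0.31 with single libraries left out. The difference between steps turned for Cep63 (-0.13 with library totals, -0.053 to 0.33 with single libraries left out) and Cep135 (-0.42 to 0.018). Of 170 recomputed step differences, 151 kept direction and call, 4 turned and 15 lost the call, most of them with single libraries left out. Library totals were among the other fits that lost a call, for Mcph1 (adjusted p = 0.12) and Cit (adjusted p = 0.085). The cause was not tested. Upper quartile scaling moved the median of all genes at P60 against E14.5 to 0.0955, against -0.0632, and library totals moved it to -0.199. The Cep135 to Sass6 ratio, P60 minus E9.5, passed the threshold with 2 CPM added (-0.43, adjusted p = 0.02) and ranged from -0.411 to -0.261 with single libraries left out. With the replicate number as a block, 12121, 14015 and 15081 genes were called in the 3 comparisons, against 11613, 13681 and 14844. The block changed no call of the 10 genes. Depth limits Aspm, Wdr62 and Stil at P60.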
